A study of Mus musculus and Homo sapiens with 30 samples.

Results

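Matrix metalloproteinases are zinc-dependent enzymes that cut the proteins of the extracellular matrix, and their tissue inhibitors block them. The genes described here are 7 metalloproteinases (Mmp2, Mmp3, Mmp9, Mmp10, Mmp13, Mmp14 and Mmp15) and 3 inhibitors (Timp1, Timp2 and Timp3), 10 of the 56980 Ensembl gene IDs in the mouse count table. They were picked by name, and the choice noted a rise of Mmp10 and Mmp13 in NMuMG cells given obese adipocyte secretome. For that reason the comparison of obese secretome with control in NMuMG is given below as values with no test, and Mmp10 and Mmp13 have no test in any comparison that uses NMuMG libraries.

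Poly(A) RNA was sequenced from 2 mouse mammary lines. E0771 is a mammary cancer line, and NMuMG is an epithelial line derived from normal mouse mammary gland, although the labels give breast cancer as the cell type of both. After 36 h of growth the cells spent 16 h in their own growth medium (control), or in a mix with 50% secretome from inguinal adipocytes, lean or obese. The species, sex and diet behind the adipocytes, and how the secretome was collected, are not given in the sources used here. Both lines grew in DMEM with 10% serum, and for NMuMG alone the labels also give insulin at 10 mcg/ml and glucose at 4.5 g/L. They state neither for E0771, so the effect of the line and that of its medium cannot be told apart. Each line and medium had 3 libraries. Nothing in the labels says that the 3 came from separate cultures, so the p-values measure the spread between these libraries, which may be technical. Control cells received no secretome of any kind, so lean against obese is the comparison at a matched share of secretome.

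The 18 libraries held between 22929035 and 31094119 counts each, and 1 count was worth between 0.0311 and 0.044 CPM, the unit of counts scaled to library size. CPM levels here use 1 set of TMM factors (0.949 to 1.05) over the 18 libraries. In E0771, 1 of 8 epithelial markers was above 1 CPM in every medium: Krt8, at 220 to 248 CPM. The adhesion protein Cdh1 was at or below 0.281 CPM there, and Krt19 was at 0. NMuMG had 6 of the 8 above 1 CPM in control and 7 with either secretome, and Cdh1 stood at 486 to 578 CPM. Of 8 mesenchymal markers, 6 were above 1 CPM in E0771 and 4 in NMuMG. Adipocyte markers summed to at most 2.27 CPM in any library, with Lep at 0 throughout and Adipoq at 0 in both control groups. In NMuMG that sum was 2.1 to 2.27 CPM with lean secretome, against 0.406 to 0.754 in control and 0.387 to 1.14 with obese secretome. Cidec, a lipid droplet protein, made up most of it (2.1 ± 0.0534 CPM with lean secretome, SD, n = 3). Among leukocyte markers Adgre1 was at 0 in every NMuMG library and Ptprc at or below 0.322 CPM, while Cd14 alone reached 175 to 210 CPM. Endothelial markers summed to at most 5.4 CPM in any library, most of it Pecam1 in E0771.

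Metalloproteinases are made as inactive proenzymes, some secreted and some anchored in the cell membrane, and a further cut or a partner at the cell surface makes them active. Collagenases open fibrillar collagen, gelatinases cut denatured collagen and basement membrane collagen, and stromelysins cut a broad range of matrix proteins. In the mammary gland these enzymes and their inhibitors are known for branching of the ducts, for the regression of the gland after weaning, and for tumour invasion. RNA levels say nothing of whether an enzyme is active.

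The lines carried different sets of these genes before any secretome was added. In control medium E0771 had Mmp2 and Mmp3 and almost no Mmp10, Mmp13, Mmp15 or Timp3, and NMuMG had the reverse. Mmp9, Mmp14, Timp1 and Timp2 were present in both. Of the 8 members tested between the lines in control medium, 3 were higher in E0771, 4 were lower and Mmp9 did not pass (edgeR quasi-likelihood test, Benjamini-Hochberg adjusted p under 0.05). Mmp2, Mmp3, Mmp15 and Timp3 passed the filter on low counts only through the line where they are high. Their calls follow from that and add nothing to the levels. The called members present in both lines were Mmp14, Timp1 and Timp2. Of all 16529 genes tested, 80.5% differed between the lines, 37.1% higher and 43.4% lower in E0771.

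**Figure D1:**
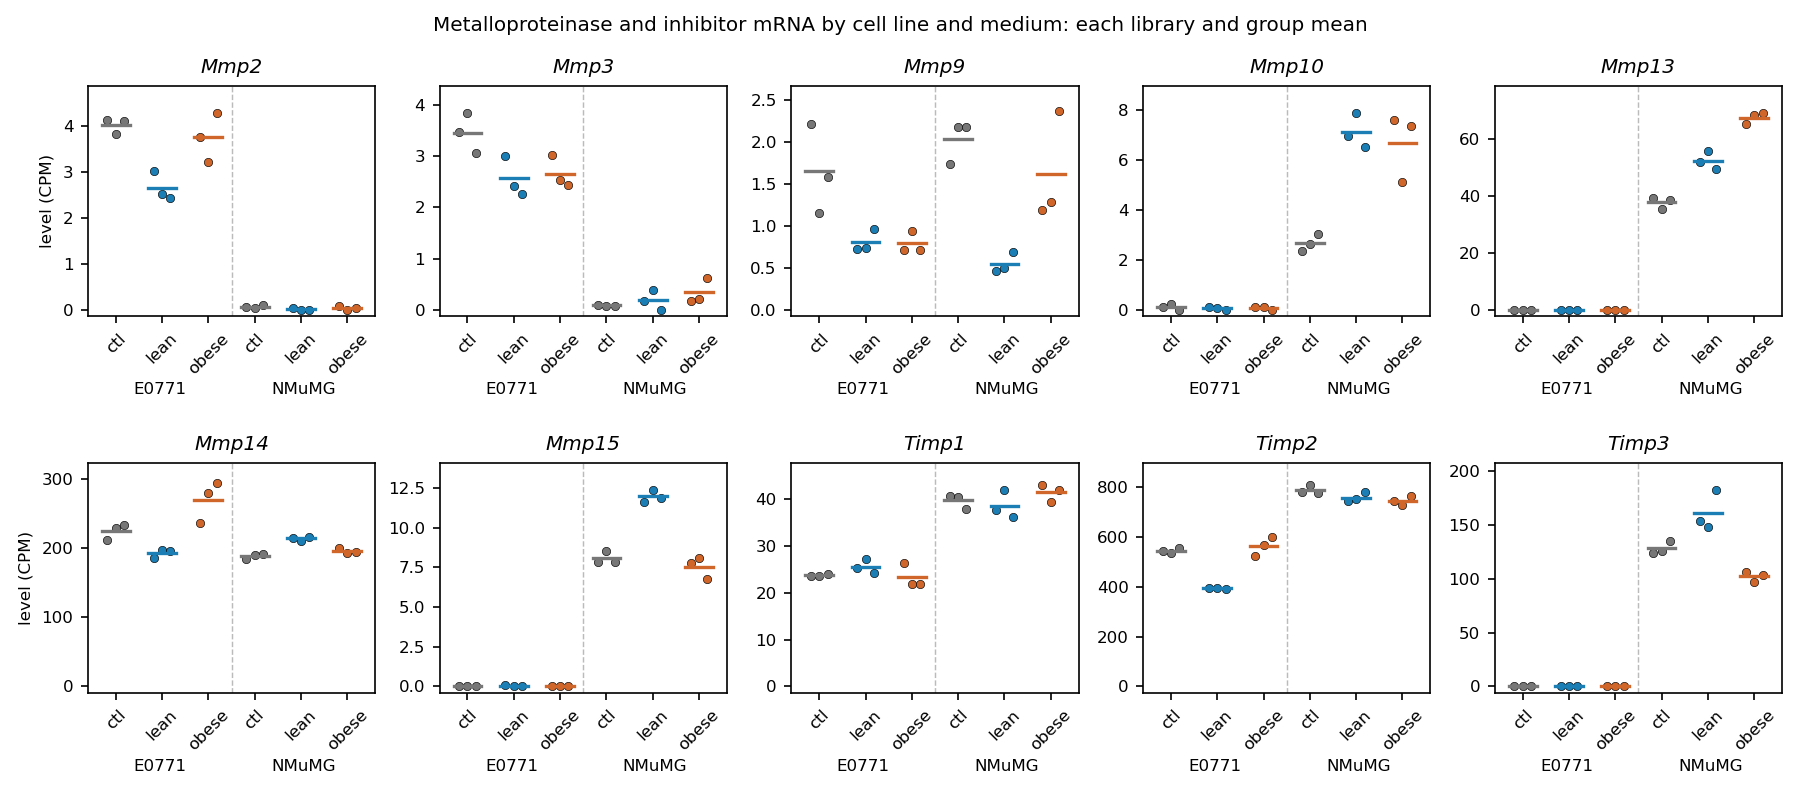
Level of each gene in CPM (y axis, linear, a separate scale for each gene) by cell line and medium, with ctl for control; each point is 1 library and each bar the mean of 3. Mmp2 and Mmp3 sit near 0 in NMuMG, and Mmp10, Mmp13, Mmp15 and Timp3 sit near 0 in E0771; Mmp13 in NMuMG rises from 35.5 to 39.3 CPM in control to 65.1 to 69 CPM with obese secretome.

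Per kilobase of exon (RPKM, which allows levels of different genes to be set side by side), Timp2 was the most abundant of the 10 genes in both lines. In E0771 control libraries the order was Timp2 at 140 ± 2.74 RPKM (SD, n = 3), Mmp14 at 37.8 ± 1.92, Timp1 at 26.7 ± 0.281, Mmp3 at 1.92 ± 0.218, Mmp2 at 1.19 ± 0.0531 and Mmp9 at 0.467 ± 0.152. These neighbours are further apart than their spread, and the remaining 4 genes lay at or below 0.0688 RPKM. In NMuMG control libraries Timp2 stood at 202 ± 4.67 RPKM, Timp1 at 44.7 ± 1.64, Mmp14 at 31.7 ± 0.619, Timp3 at 15.8 ± 0.741, Mmp13 at 14.2 ± 0.756, Mmp10 at 1.56 ± 0.191, Mmp15 at 1.49 ± 0.0755 and Mmp9 at 0.575 ± 0.0715. There Timp3 and Mmp13 were apart by little more than their spread, and Mmp10 and Mmp15 differed by less than their spread. With obese secretome the order of that pair turned in NMuMG, to 25.2 ± 0.761 RPKM for Mmp13 and 12.6 ± 0.6 for Timp3. Exon lengths came from an annotation on an older genome build than the authors' own, so RPKM levels are approximate.

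The stromelysins Mmp3 and Mmp10 and the collagenase Mmp13 belong to a cluster of metalloproteinase genes on chromosome 9. In RefSeq the coding genes next to Mmp3 are Mmp1b and Mmp1a, those next to Mmp10 are Mmp1a and Mmp8, and those next to Mmp13 are Dcun1d5 and Mmp12. Of the 10 genes, 8 had a promoter window in the RefSeq table (GRCm38.p6). Mmp2 and Mmp9 had none, so nothing is said of their promoters. In the 8 windows the 250 bases upstream of the annotated start were searched on both strands for 5 motifs. The letters TGANTCA, bound by AP-1 (dimers of Fos and Jun proteins), were found in 3 of the 8: Mmp3, Mmp10 and Mmp13. The share of all 32851 windows that hold them was 6.75%. The windows of these 3 genes are shown because no other member's window holds those letters and because Mmp10 and Mmp13 are the genes whose rise was noted when the members were picked; all lie on the plus strand, run 5′ to 3′, and have the AP-1 letters in capitals.
Mmp3, chr9:7445572-7445821: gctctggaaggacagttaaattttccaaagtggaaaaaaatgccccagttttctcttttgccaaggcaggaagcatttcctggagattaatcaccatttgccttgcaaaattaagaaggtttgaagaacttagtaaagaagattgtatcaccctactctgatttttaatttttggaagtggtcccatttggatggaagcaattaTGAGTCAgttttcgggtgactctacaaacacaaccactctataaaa
Mmp10, chr9:7502092-7502341: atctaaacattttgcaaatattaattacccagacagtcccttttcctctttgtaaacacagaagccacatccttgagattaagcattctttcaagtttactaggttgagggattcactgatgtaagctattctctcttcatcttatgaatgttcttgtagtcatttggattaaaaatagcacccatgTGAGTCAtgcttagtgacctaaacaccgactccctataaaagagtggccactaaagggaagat
Mmp13, chr9:7272264-7272513: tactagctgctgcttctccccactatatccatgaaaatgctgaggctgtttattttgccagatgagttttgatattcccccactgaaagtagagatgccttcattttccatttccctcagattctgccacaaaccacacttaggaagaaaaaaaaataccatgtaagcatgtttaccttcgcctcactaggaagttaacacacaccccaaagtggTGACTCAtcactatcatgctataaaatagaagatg

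The AP-1 letters stand at -46 to -40 from the annotated start in Mmp3, at -63 to -57 in Mmp10 and at -35 to -29 in Mmp13. The letters TATAAA were also found in these 3 windows and in no other member's, against 12.4% of all windows, and in each they lie between the AP-1 letters and the start. They stand at -7 to -2 in Mmp3, at -29 to -24 in Mmp10 and at -16 to -11 in Mmp13, so their distance from the annotated start differs. The ETS letters AGGAAG were in 5 of the 8 (Mmp3, Mmp13, Mmp14, Timp1 and Timp3), against 29.5%. The antioxidant response element core TGACNNNGC was in Mmp15 and Timp2, against 10.2%, and the NF-kB consensus in none of the 8, against 0.14%. A match is a run of letters and no evidence of binding.

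**Figure D2:**
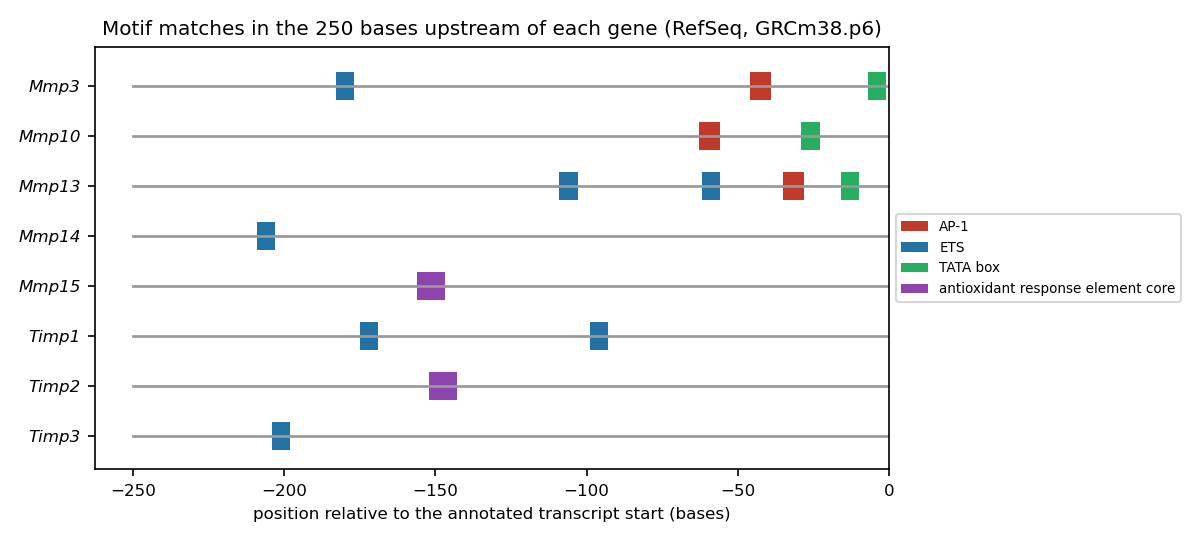
Motif matches in the 250 bases upstream of the annotated start (x axis, bases from the start) for the 8 members with a RefSeq promoter window; each coloured block is 1 match. Among these 8, AP-1 and TATA box letters appear in Mmp3, Mmp10 and Mmp13 alone. Mmp2 and Mmp9 had no window.

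Mmp10, a stromelysin, was higher with both secretomes in NMuMG. Its 3 control libraries stood at 2.37, 2.66 and 3.03 CPM, those with lean secretome at 6.97, 7.89 and 6.53, and those with obese secretome at 7.61, 5.12 and 7.39. Every library with secretome was above every control library, and the lean and obese libraries overlapped. The log2 fold change was 1.32 ± 0.151 (SE) for obese against control, 1.41 ± 0.148 for lean against control and 0.09 ± 0.131 for lean against obese; both secretomes are compared with the same 3 control libraries. In E0771, Mmp10 had 0 to 7 counts per library, and the libraries numbered 3 had 0 in each of the 3 media. Mmp10 and Mmp3 are close paralogs, so reads shared between them are uncertain.

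Mmp13, the collagenase, was higher with obese secretome than with lean, and higher with lean than in control. Control NMuMG libraries stood at 39.3, 35.5 and 38.7 CPM, lean at 52, 55.6 and 49.4, and obese at 65.1, 68.2 and 69. The 3 groups did not overlap. The log2 fold change was 0.83 ± 0.0519 for obese against control, 0.47 ± 0.0525 for lean against control and -0.36 ± 0.0505 for lean against obese, which again are values and not tests. In E0771 Mmp13 had 0 to 4 counts per library. NMuMG held 1480 times as much in control medium, with a counting interval of 423 to 12600 that rests on 2 counts in E0771, and 22.7 times as much Mmp10.

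Mmp3, the other stromelysin, showed the opposite distribution between lines. In E0771 it stood at 3.47, 3.84 and 3.06 CPM in control, at 3.01, 2.42 and 2.27 with lean secretome and at 3.02, 2.53 and 2.43 with obese secretome. All 6 secretome libraries were below all 3 control libraries, some by very little. Mmp3 fell with lean secretome by 0.46 ± 0.169 on the log2 scale (SE, adjusted p = 0.0235), and the call was lost without control replicate 1 (0.051), control replicate 2 (0.107), lean replicate 2 (0.0732) or lean replicate 3 (0.0991). Obese against control gave -0.40 ± 0.17 (adjusted p = 0.254) and lean against obese -0.06 ± 0.175 (0.779). NMuMG had 0 to 16 Mmp3 counts per library, too few to pass the filter on low counts. Between the lines in control medium Mmp3 was higher in E0771, by 5.25 ± 0.411 on the log2 scale (adjusted p = 1.51e-14). That call follows from Mmp3 passing the filter through E0771 alone.

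Mmp2 and Mmp9 are the gelatinases. Mmp2 in E0771 stood at 4.13, 3.81 and 4.10 CPM in control, at 3.01, 2.52 and 2.42 with lean secretome and at 3.74, 3.21 and 4.27 with obese secretome. The lean libraries were below all others, and the obese libraries overlapped with control. Mmp2 fell with lean secretome against control (log2 fold change -0.62 ± 0.158, adjusted p = 0.00168) and was lower with lean than with obese (-0.51 ± 0.159, adjusted p = 0.00877); without obese replicate 3, the second difference missed the threshold (0.0666). Obese against control gave -0.11 ± 0.153 (adjusted p = 0.797). In NMuMG, 3 of 9 libraries had no Mmp2 count and none had more than 3. E0771 was higher in control medium by 5.67 ± 0.34 on the log2 scale (adjusted p = 8.08e-19), a call that follows from Mmp2 passing the filter through E0771 alone.

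Mmp9 was low in both lines and was reduced by lean secretome in both. In E0771 it stood at 2.22, 1.15 and 1.59 CPM in control, at 0.728, 0.736 and 0.963 with lean secretome and at 0.718, 0.944 and 0.718 with obese secretome. The secretome groups were both below control and overlapped with each other. In NMuMG it stood at 1.74, 2.18 and 2.18 CPM in control, at 0.465, 0.501 and 0.686 with lean secretome and at 1.19, 1.29 and 2.37 with obese secretome, where 1 library was above all controls and the other 2 were below. Lean against control gave a log2 fold change of -1.05 ± 0.278 in E0771 (adjusted p = 0.00233) and -1.88 ± 0.292 in NMuMG (2.71e-06). The difference between these effects, E0771 minus NMuMG here and below, did not pass (0.86 ± 0.418, adjusted p = 0.113), though it did without E0771 control replicate 1 (0.0366).

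The lines differed in how Mmp9 stood between the 2 secretomes. In NMuMG Mmp9 was lower with lean than with obese secretome (-1.57 ± 0.306, adjusted p = 0.000107). In E0771 the same comparison gave 0.02 ± 0.308 (adjusted p = 0.955), and the difference between the lines was 1.61 ± 0.444 (adjusted p = 0.00369). E0771 with obese secretome was below control (log2 fold change -1.08 ± 0.283, adjusted p = 0.0402), a call that did not survive the loss of obese replicate 1 (0.139), obese replicate 3 (0.188), control replicate 1 (0.349) or control replicate 3 (0.0629), and to which DESeq2 gave no adjusted p. NMuMG with obese secretome was at -0.32 ± 0.246, not tested. In control medium the lines did not differ beyond their spread in Mmp9 (-0.29 ± 0.247 for E0771 against NMuMG, adjusted p = 0.278).

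Mmp14 and Mmp15 are anchored in the membrane, and Mmp14 is known to activate Mmp2 together with Timp2. Mmp14 moved in opposite directions in the lines when lean secretome was added. E0771 stood at 212, 229 and 234 CPM in control, at 186, 197 and 196 with lean secretome and at 237, 280 and 294 with obese secretome. NMuMG stood at 185, 191 and 192 CPM in control, at 215, 211 and 217 with lean secretome and at 201, 194 and 195 with obese secretome. In both lines the lean libraries did not overlap with either other group, and they were the lowest in E0771 and the highest in NMuMG.

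With lean secretome Mmp14 fell in E0771 (-0.25 ± 0.0652 on the log2 scale, adjusted p = 0.00536, or 0.0604 without lean replicate 3) and rose in NMuMG (0.18 ± 0.0334, adjusted p = 3.9e-05). The difference of these effects was -0.40 ± 0.0733 (adjusted p = 7.26e-05). Lean against obese gave -0.50 ± 0.065 in E0771 (adjusted p = 2.04e-05) and 0.13 ± 0.0335 in NMuMG (0.0031), with a difference of -0.61 ± 0.0732 (1.7e-07). Obese against control in E0771 was 0.25 ± 0.0648, with the groups apart in every library and an adjusted p of 0.063. Without obese replicate 1, the lowest of its group, it was 0.34 (adjusted p = 0.000198). The fits that left out 1 library ran from 0.19 to 0.34, and the adjusted p reached 0.285 over the alternatives. In control medium Mmp14 was higher in E0771 by 0.25 ± 0.0519 (adjusted p = 8.25e-05), the smallest of the line differences that passed.

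Mmp15 was an NMuMG gene in these data, and E0771 had at most 2 counts in any library. NMuMG stood at 7.84, 8.54 and 7.82 CPM in control, at 11.6, 12.4 and 11.9 with lean secretome and at 7.79, 8.08 and 6.76 with obese secretome. The lean libraries were above all others, and obese and control overlapped. Mmp15 rose with lean secretome by 0.57 ± 0.0936 on the log2 scale (adjusted p = 6.76e-06) and was higher with lean than with obese by 0.67 ± 0.0966 (adjusted p = 9.5e-07). In control medium it was at least 71.7-fold higher in NMuMG, counting E0771 at 3 counts per library.

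The inhibitors Timp1, Timp2 and Timp3 did not move together. Timp2 stood at 542, 537 and 557 CPM in E0771 control libraries, at 397, 397 and 392 with lean secretome and at 522, 569 and 598 with obese secretome. The lean libraries were far below the rest and close to each other. Timp2 fell with lean secretome against control (log2 fold change -0.49 ± 0.0405, adjusted p = 3.31e-10) and was lower with lean than with obese (-0.52 ± 0.0404, 1.65e-10), while obese against control gave 0.03 ± 0.0403 (0.751).

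In NMuMG Timp2 stayed within a narrower band: 782, 809 and 775 CPM in control, 743, 751 and 780 with lean secretome and 744, 727 and 765 with obese secretome. Lean against control gave -0.06 ± 0.0314 (adjusted p = 0.161) and lean against obese 0.03 ± 0.0315 (0.557). The difference between the lines was -0.41 ± 0.052 for lean against control (adjusted p = 3.99e-08) and -0.53 ± 0.0521 for lean against obese (1.02e-10). In control medium E0771 had less Timp2 than NMuMG (log2 fold change -0.53 ± 0.0368, adjusted p = 9.48e-17).

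The summed mesenchymal and endothelial markers were also lower with lean secretome in E0771, as Timp2, Mmp2 and Mmp14 were. The 8 mesenchymal markers summed to 3860 to 4040 CPM in control, 2320 to 2550 with lean secretome and 3480 to 3800 with obese secretome, with Thy1 at 0 in control and with obese secretome. Vim, an intermediate filament protein, made up most of that sum (2900 ± 66.7 CPM in control and 1960 ± 115 with lean secretome, SD, n = 3). For lean against control 4 of the 6 markers in the fit were called lower (Vim, Pdgfra, Col1a1 and Col3a1), and Zeb1 (-0.11 ± 0.0467, adjusted p = 0.0586) and Pdgfrb (-0.27 ± 0.153, 0.189) did not pass. Of all genes tested, 56.3% were called, 29% as lower. With obese secretome the marker sum lay below every control library, while Mmp14 lay above every control library. The 4 endothelial markers summed to 3.33 to 4.31 CPM in control, 2.04 to 2.89 with lean secretome and 3.14 to 5.4 with obese secretome, with Tek at 0 in control and Kdr and Tek at 0 with obese secretome. Pecam1, an endothelial adhesion protein, was lower with lean secretome than in control (-0.72 ± 0.188, adjusted p = 0.002) and than with obese secretome (-0.88 ± 0.185, 0.000304). Near the floor, Cdh5 and Kdr went the other way, with 12 and 3 counts over the lean libraries against 2 and 1 in control. The lower endothelial sum thus rests on Pecam1. The part of these markers in the results was not tested. In bulk RNA, fewer cells of a type and less RNA per cell cannot be told apart.

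Timp3, an inhibitor that binds to the matrix, had 0 counts in all 9 E0771 libraries. In NMuMG it stood at 124, 126 and 135 CPM in control, at 154, 148 and 183 with lean secretome and at 106, 97.1 and 104 with obese secretome. The 3 groups did not overlap, with lean the highest and obese the lowest. Timp3 rose with lean secretome against control (0.33 ± 0.0791, adjusted p = 0.0103) and was higher with lean than with obese (0.66 ± 0.0809, 0.000283); obese against control was -0.32 ± 0.0815, not tested. In control medium it was at least 1140-fold higher in NMuMG, counting E0771 at 3 counts per library. Exons of Timp3 share 1733 bases with Syn3 on the other strand in the annotation used for lengths. The strand setting of the counting is not given in the sources used here, and Syn3 stood at 2.23 to 3.5 CPM in NMuMG and at 0 in E0771.

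In NMuMG some marker sums were also highest with lean secretome, as Mmp14, Mmp15 and Timp3 were. The 8 epithelial markers summed to 7440 to 7910 CPM in control, 8210 to 8440 with lean secretome and 7110 to 7510 with obese secretome, with Cldn7 at 0 throughout. For lean against control Krt8 (0.15 ± 0.0298, adjusted p = 9.18e-05), Krt18 (0.14 ± 0.0295, 0.000199) and Cldn4 (1.25 ± 0.266, 0.000283) were higher, and the other 4 in the fit did not pass. Of all genes tested, 38.2% were called, 19.1% as higher. The 5 leukocyte markers summed to 179 to 198, 201 to 214 and 184 to 190 CPM in the same order, nearly all of it Cd14 (0.14 ± 0.0368 for lean against control, adjusted p = 0.00333), with Adgre1 at 0. The adipocyte sum, given above, was highest with lean secretome too. The part of these markers in the results was not tested.

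Timp1, a secreted inhibitor, passed the test in no comparison of media. E0771 stood at 23.6, 23.6 and 24 CPM in control, at 25.3, 27.3 and 24.2 with lean secretome and at 26.3, 21.9 and 21.9 with obese secretome. NMuMG stood at 40.7, 40.5 and 38 CPM in control, at 37.7, 41.9 and 36.1 with lean secretome and at 43.1, 39.3 and 41.9 with obese secretome. The lines did not overlap, and Timp1 was lower in E0771 in control medium (log2 fold change -0.74 ± 0.0677, adjusted p = 4.45e-13). Lean against obese came to 0.12 ± 0.0745 in E0771 (adjusted p = 0.194, or 0.0265 without obese replicate 1) and to -0.10 ± 0.0572 in NMuMG (0.178, or 0.0351 without lean replicate 2). The test of the difference between the lines gave 0.23 ± 0.0954 (adjusted p = 0.0535), and leaving out any of 4 libraries took it under the threshold: E0771 lean replicate 3 (0.0221), E0771 obese replicate 1 (0.00562), NMuMG lean replicate 2 (0.0168) or NMuMG obese replicate 2 (0.0331). Timp1 lies within Syn1, with no exon base in common in that annotation.

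Counted over the 10 genes, 6 passed the filter on low counts in E0771 and 8 in NMuMG. With lean secretome against control in E0771, 5 of the 6 were lower, none was higher and Timp1 did not pass; 56.3% of all genes tested were called, 29% as lower. The median log2 fold change of the 6 was -0.48, against -0.013 over all genes. Without lean replicate 3 the count was 3. For lean against obese in E0771, 3 of the 6 were lower (Mmp2, Mmp14 and Timp2) and none was higher, where 52.7% of all genes were called, 26.9% as lower. For obese against control in E0771, 1 of the 6 was lower (Mmp9), where 2.61% of all genes were called, 1.4% as lower. That count was 0 when obese replicate 3, control replicate 1 or control replicate 3 was left out, and 2 with no filter on low counts.

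In NMuMG 6 members could be tested. With lean secretome against control 3 were higher (Mmp14, Mmp15 and Timp3), Mmp9 was lower and 2 did not pass, where 38.2% of all genes were called, 19.1% as higher and 19.1% as lower. The same 3 were higher and Mmp9 lower for lean against obese, where 35% of all genes were called, 17.6% as higher and 17.4% as lower; the 2 comparisons share their lean libraries. For obese against control, with no test, 5 of the 8 genes in the fit had no overlap between the groups (Mmp10, Mmp13 and Mmp14 higher, Timp2 and Timp3 lower), and nothing is read from the 21.3% of all genes for which this was so, or from the 5.01% called. Of the 8 members tested for a difference in effect between the lines, 2 passed for lean against control (34.5% of all genes) and 3 for lean against obese (34.2%). For Mmp2, Mmp3, Mmp15 and Timp3 one line had few or no counts, so the test of the difference carries little information.

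**Figure D3:**
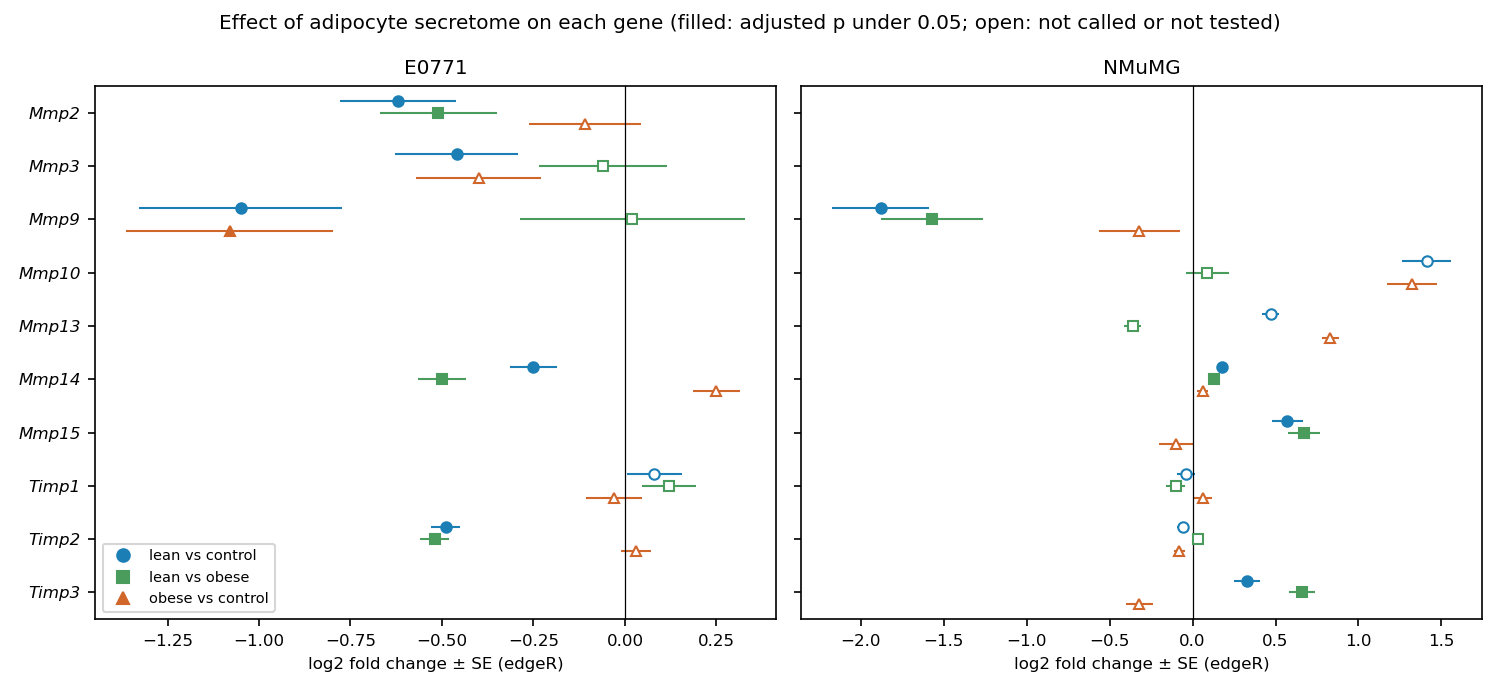
Log2 fold change with its standard error (x axis, separate scale for each line) for each member that passed the filter in E0771 (left) and NMuMG (right). Filled symbols passed the test; open symbols did not or were not tested, as in NMuMG for obese against control and for Mmp10 and Mmp13. Timp2 and Mmp14 with lean secretome lie left of 0 in E0771, and Mmp14 lies right of 0 in NMuMG.

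Summed per kilobase, the 7 metalloproteinase genes came to 41.4 ± 1.72 RPKM in E0771 control libraries, 34.9 ± 0.709 with lean secretome and 48.2 ± 4.84 with obese secretome (SD, n = 3). Mmp14 alone made up 91.2%, 92.8% and 94% of these sums. In NMuMG the sum was 49.6 ± 0.813 RPKM in control, 62.2 ± 1.23 with lean secretome and 64.2 ± 1.04 with obese secretome, and the share of Mmp14 was 64%, 57.9% and 51.4%. Most of the rest was Mmp13, which rose from 14.2 ± 0.756 RPKM in control to 19.6 ± 1.17 and 25.2 ± 0.761.

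The 3 inhibitors summed to 167 ± 3 RPKM in E0771 control libraries, 130 ± 2.41 with lean secretome and 171 ± 7.26 with obese secretome, and Timp2 held 84%, 77.9% and 84.5% of that. In NMuMG they summed to 263 ± 5.36 RPKM in control, 258 ± 5.58 with lean secretome and 251 ± 7.03 with obese secretome. The ratio of inhibitor to metalloproteinase RNA was 4.03 ± 0.155 in E0771 control libraries, 3.74 ± 0.0985 with lean secretome and 3.56 ± 0.227 with obese secretome. In NMuMG it was 5.3 ± 0.181 in control, 4.15 ± 0.143 with lean secretome and 3.9 ± 0.0472 with obese secretome, and its control libraries (5.11 to 5.47) did not overlap with those given secretome (3.85 to 4.31). These ratios rest on the members chosen and are described with no test.

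**Figure D4:**
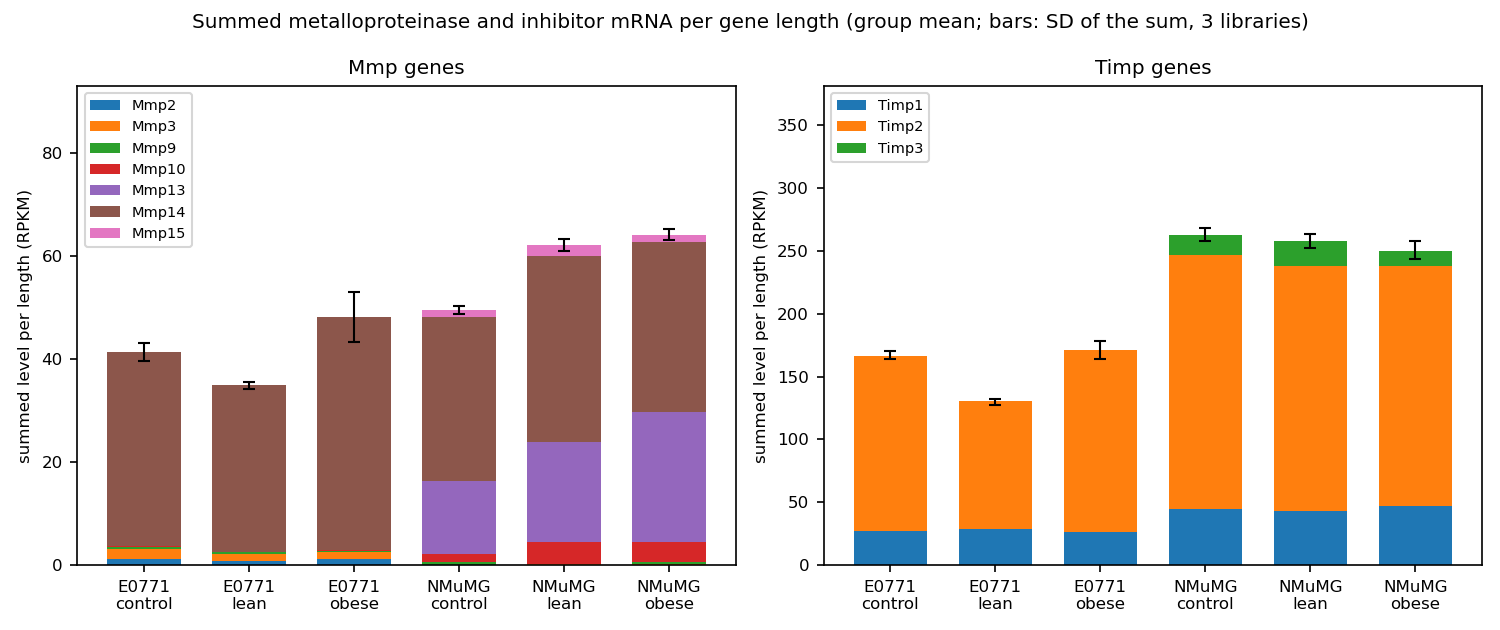
Summed level of the 7 Mmp genes (left) and the 3 Timp genes (right) in RPKM (y axis, from 0) by line and medium; stacked colours are the group means of single genes and error bars the SD of the sum over 3 libraries. Mmp14 fills most of the E0771 bars, Mmp13 widens in NMuMG from control to obese secretome, and the Timp sum of E0771 with lean secretome (130 RPKM) is the lowest.

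Other genes of the same system were taken from 5 lists: other metalloproteinases, other inhibitors, activators and surface partners, AP-1 and ETS transcription factors, and matrix substrates. Of 16 other Mmp genes, 12 were under 1 CPM in every E0771 library and 10 in every NMuMG library. The 4 that could be tested in E0771 included Mmp28, Mmp19 and Mmp11, secreted enzymes that all fell with lean secretome, with log2 fold changes of -1.69 ± 0.0963 (adjusted p = 8.01e-13), -0.85 ± 0.098 (7.44e-08) and -0.66 ± 0.0756 (7.68e-08). Mmp28 stood at 18.6 ± 1.36 CPM in E0771 control, at 5.86 ± 0.454 with lean secretome and at 16.6 ± 1.56 with obese secretome (SD, n = 3). These 3 of 4 calls in E0771 stand beside 56.3% of all genes called, 29% as lower. In NMuMG 2 of 7 fell and none rose, where 38.2% of all genes were called, 19.1% as lower. The 2 were Mmp17 (-1.21 ± 0.226, adjusted p = 5.07e-05) and Mmp28 (-0.41 ± 0.0846, 0.000169). The fall of Mmp28 was larger in E0771 (difference of the log2 fold changes -1.26 ± 0.129, adjusted p = 3e-10). None of the 4 other inhibitors could be tested in E0771, and Reck, a membrane-bound inhibitor, was the only one in NMuMG (-0.42 ± 0.261 for lean against control, not called).

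The plasminogen system activates several metalloproteinase proenzymes, and Plaur of that system rose with lean secretome in both lines. In E0771 7 of 10 activators and partners rose and 1 fell, where 56.3% of all genes were called, 29% as lower. In NMuMG 8 of 11 rose and 2 fell, where 38.2% of all genes were called, 19.1% as higher and 19.1% as lower. Plaur, the urokinase receptor, rose by 1.10 ± 0.0859 in E0771 (adjusted p = 8.68e-08) and by 1.13 ± 0.106 in NMuMG (0.000212). Plat, the tissue plasminogen activator, rose in NMuMG from 62.1 ± 0.141 CPM in control to 145 ± 7.59 (1.23 ± 0.0502, adjusted p = 2.75e-16). Plau, urokinase itself, fell in NMuMG (-0.19 ± 0.0744, adjusted p = 0.0442) and did not pass in E0771 (0.19 ± 0.121, 0.198). Lrp1, a receptor that clears proteases from the cell surface, fell in E0771 (-1.21 ± 0.153, adjusted p = 0.000542). The median of the tested list was 0.22 in E0771 and 0.16 in NMuMG, against -0.013 and -0.005 over all genes.

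The list of AP-1 and ETS factors also holds Runx2, a factor of bone and cartilage known to act on Mmp13. For lean against control 12 of its 12 genes were called in E0771 (9 rose, 3 fell), against 56.3% of all genes, 29% as lower. In NMuMG 7 of 12 were called (4 rose, 3 fell), against 38.2% of all genes, 19.1% as higher and 19.1% as lower. In E0771 Fosb rose by 1.23 ± 0.266 on the log2 scale (adjusted p = 0.000333), Fosl1 by 1.11 ± 0.1 (1.96e-05) and Fosl2 by 0.85 ± 0.0766 (1.08e-07). In NMuMG Fos rose by 0.88 ± 0.179 (0.000146) and Fosl1 by 0.64 ± 0.0611 (6.26e-07), while Runx2 fell by 0.43 (-0.43 ± 0.0508, 2.05e-08). The median log2 fold change of the list was 0.51 in E0771 and 0.01 in NMuMG, against -0.013 and -0.005 over all genes. Mmp10 and Mmp13 were higher with secretome in NMuMG and had 0 to 7 counts per library in E0771. Whether the factors of this list have a part in that was not tested.

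Matrix substrates fell more often than they rose in E0771 with lean secretome (9 fell, 4 rose, of 15 tested), where 56.3% of all genes were called, 29% as lower. In NMuMG 5 rose and 3 fell of 15, where 38.2% of all genes were called, 19.1% as higher and 19.1% as lower. Col1a1 and Col3a1, the fibrillar collagens that collagenases cut, fell in E0771 by 1.75 (-1.75 ± 0.148, adjusted p = 6.27e-05) and 1.53 (-1.53 ± 0.14, 6.62e-05). Both genes are also on the list of mesenchymal markers. In NMuMG Col1a1 fell by 0.91 (-0.91 ± 0.15, adjusted p = 7e-06) and Fn1, fibronectin, fell by 0.69 (-0.69 ± 0.0802, 0.000494). Col1a1 was low there, at 4.95 ± 0.294 CPM in control against 655 ± 45.5 in E0771 control (SD, n = 3). Col4a2 went the other way in NMuMG, from 319 ± 10.1 CPM in control to 507 ± 14.6 with lean secretome.

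**Figure D5:**
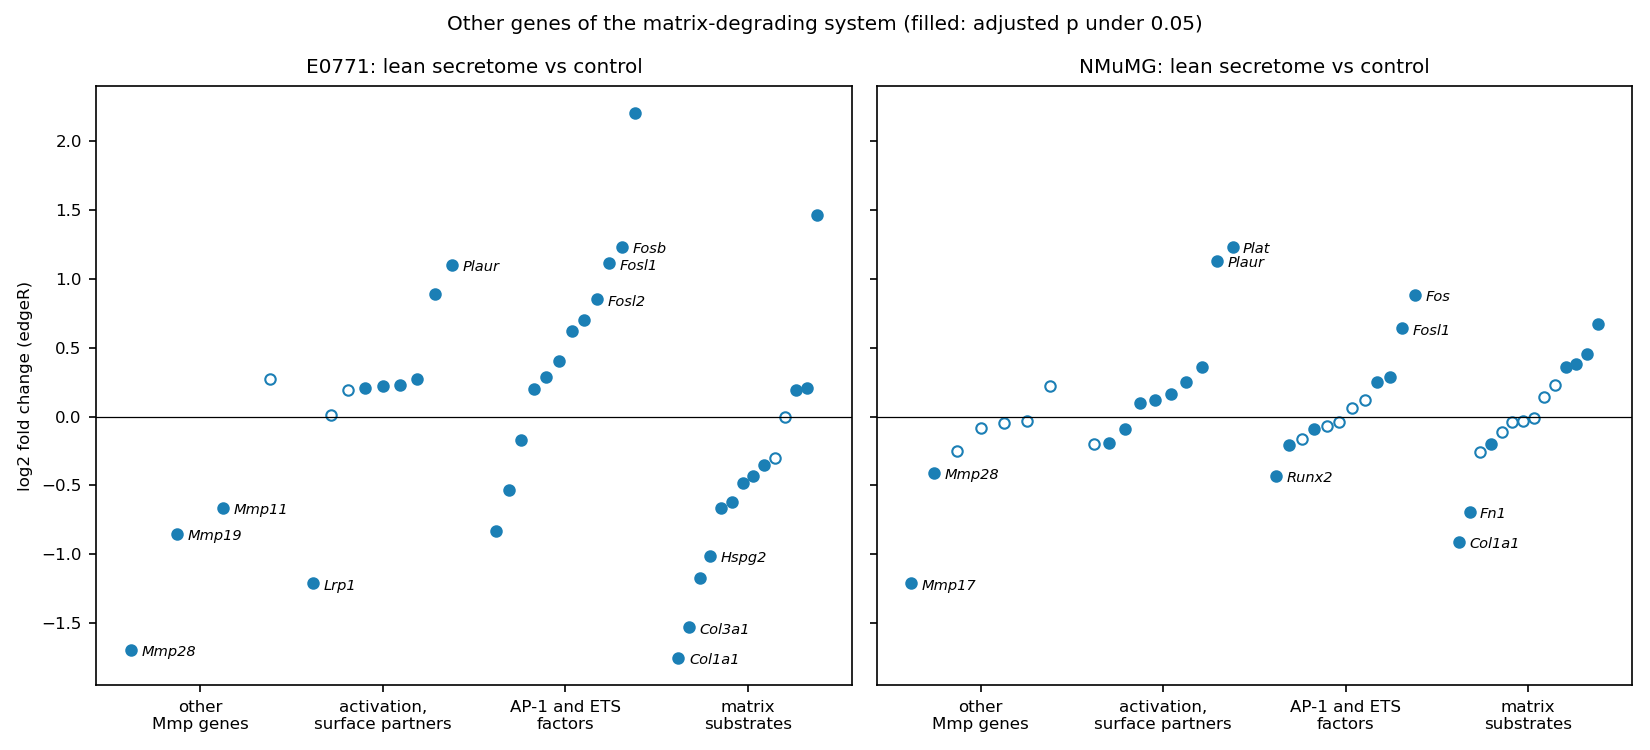
Log2 fold change of lean secretome against control (y axis) for the listed genes that passed the filter and are reported here, by list (x axis), in E0771 (left) and NMuMG (right). Each point is 1 gene, filled where the adjusted p was under 0.05, and the names are those among the 3 called genes per list with the largest change and a mean of at least 1 CPM.

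With obese secretome against control, 1 of 10 activators and partners, 1 of 12 AP-1 and ETS factors, 3 of 15 matrix substrates and 0 of 4 other Mmp genes were called in E0771, where 2.61% of all genes were called. Ctsb rose by 0.21 ± 0.0365 (adjusted p = 0.00218), Etv5 fell by 0.22 (-0.22 ± 0.0573, 0.0402) and the 3 matrix genes fell, Nid1 (-0.28 ± 0.0558, 0.00728), Col5a1 (-0.20 ± 0.0467, 0.0215) and Lamc1 (-0.16 ± 0.0411, 0.0335). The Etv5 call was lost when any 1 of the 6 libraries was left out (0.0592 to 0.251), and the count of matrix genes ran from 0 to 5 over the alternatives. Lean against obese called 12 of 12 AP-1 and ETS factors in E0771 (9 higher with lean), against 52.7% of all genes, 26.9% as lower. In NMuMG it called 7 of 12 (3 higher), against 35% of all genes, 17.6% as higher and 17.4% as lower.

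Genes whose levels followed Mmp10 and Mmp13 most closely were sought among 11465 genes over the 9 NMuMG libraries, as a description, since these libraries form 3 groups by medium and any gene that follows the groups will score high. For Mmp10 these were Itga6, a laminin-binding integrin (Pearson r = 0.992), Ctsl, a lysosomal cysteine protease (0.984), Odc1, the enzyme that starts polyamine synthesis (0.982), Emp1 (0.98) and Noc3l (0.979). Itga6 stood at 171 CPM in control, 211 with lean secretome and 209 with obese secretome. For Mmp13 they were Clip4 (0.958), Hmga2, a chromatin protein (0.958), Tnfaip2 (0.955), Cinp (0.948) and Hmga1b (0.945). Tnfaip2 stood at 54.8, 72 and 78.2 CPM in the same order, rising as Mmp13 did from control to lean to obese secretome.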

How the data were processed

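The authors deposited raw read counts per Ensembl gene ID for the mouse libraries; these were used as deposited. Per the submitters' processing notes, cutadapt 1.16, STAR 2.7.9a and featureCounts 1.6.3 were run with genome build GRCm39. Per the labels' protocols, libraries were made with a directional poly(A) kit. The annotation release and strand setting are not given in the sources used here. The human table was not analysed here. GENCODE M21 (GRCm38) named 52073 of 56980 IDs (99.68% of counts) and gave exon lengths.

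Members and lists were chosen with earlier results of these data known. Each line was fitted alone with its 3 media in edgeR 4.0.16 under R 4.3.3: filterByExpr, TMM, robust dispersion and quasi-likelihood F test, with Benjamini-Hochberg adjustment over all genes tested (13813 in E0771, 15014 in NMuMG) and calls at an adjusted p under 0.05. Differences between lines used 1 fit of 18 libraries in 6 groups (16529 genes). An SE is the log2 fold change divided by the root of F. Replicate pairs differed by 2.3 to 8.44 chi-square per degree of freedom against counting error, so no library was a copy of another. The largest values were those of E0771 lean replicate 3 against replicates 1 and 2 (8.44 and 8.16), while replicates 1 and 2 differed by 2.3. The biological coefficient of variation was 0.0468 in E0771 and 0.0388 in NMuMG. Counts carry no molecular identifiers; 3 counts per library were taken as the floor. All 10 members were named, with up to 3 called genes per list by size of change (mean log2 CPM of at least 0) and the 5 genes most like Mmp10 or Mmp13 (log2 CPM, prior count 2). The list counts cover 2 genes that are not reported singly or plotted here. The steps were tested on simulated data. Alternatives were DESeq2 1.42.0 (its size factors and its test), no filter, a replicate block, fewer groups in the fit, and leaving out each library; RPKM sums were also scaled by library total.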

Additional observations from a re-analysis of the deposited data

Results flagged for a closer look

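The effect of lean secretome differed between E0771 and NMuMG by a test of the difference itself (edgeR interaction, adjusted over 16529 genes) for 3 of the genes described. Of 8 members, 2 passed against control, where 34.5% of all genes did, and 3 against obese secretome, where 34.2% did, so these counts are near the share over all genes. Against control, Mmp14 differed by -0.40 on the log2 scale (adjusted p = 7.26e-05): it fell in 3 of 3 E0771 libraries relative to every control library and rose in 3 of 3 NMuMG libraries. Timp2 differed by -0.41 (adjusted p = 3.99e-08), with the E0771 lean libraries at 392 to 397 CPM and the NMuMG lean libraries overlapping with control. Against obese secretome, Mmp14 differed by -0.61 (adjusted p = 1.7e-07), Timp2 by -0.53 (1.02e-10) and Mmp9 by 1.61 (0.00369). In the last, lean libraries lay below all obese libraries in NMuMG and overlapped with them in E0771. The lean libraries enter both comparisons. The labels give insulin and glucose for the medium of NMuMG and not for that of E0771, and the part of the medium cannot be told apart from that of the line.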

How the results depend on the processing

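Counts of called members kept within 1.5 times under every alternative run in 6 of 8 tested comparisons. The exceptions were in E0771: lean against control gave 3 to 5 over the fits that leave out 1 library, and obese against control gave 2 with no filter on low counts and 0 to 1 with a library left out. Over all genes, E0771 obese against control called 360, and 626 with no filter; 79, 110, 192 and 89 were called without control 1, control 2, obese 1 and obese 3. NMuMG obese against control called 752, and 384, 465, 490 and 482 without control 1, control 2, obese 1 and obese 3. Among members, directions turned only for log2 fold changes near 0 that were not called or not tested, and only with 1 library left out. In E0771 lean against obese, Mmp3 ran from -0.20 to 0.03 (above 0 without lean 3 or obese 1) and Mmp9 from -0.12 to 0.16 (below 0 without lean 3, obese 1 or obese 3). In E0771 obese against control, Timp1 ran from -0.13 to 0.02 and Timp2 from -0.01 to 0.08. In NMuMG lean against control, Timp1 ran from -0.11 to 0. In NMuMG lean against obese, Mmp10, which was not tested, ran from -0.07 (without obese 2) to 0.19. The cause was not tested.

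Scaled by library total, the Mmp sum was 43.2 RPKM in E0771 control, 36 with lean secretome, and in NMuMG 48, 60 and 61.3 in control, lean and obese. The Timp sum was 174 in E0771 control, 135 with lean secretome, and 254, 249 and 239 in NMuMG. The order of the media within each line was the same as with TMM.

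Replicate numbers did not pair the libraries: deviations of same-numbered libraries correlated at -0.0947 to 0.11 over 9 pairs in E0771, 1 of them above 0.1, and at -0.0285 to 0.025 in NMuMG. With the replicate block, Mmp9 in E0771 obese against control missed the threshold (adjusted p = 0.0533) and Mmp14 passed it (0.00213); Mmp14 also passed with DESeq2 (0.00245) and with no filter (5.8e-07). The block changed no other call of a member.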

Other observations

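The lines also differed in the genes around the metalloproteinases. Pcsk6, a proprotein convertase, had 0 counts in all 9 E0771 libraries and stood at 43.9 ± 1.51 CPM (SD, n = 3) in NMuMG control. Fn1 had 0 counts in E0771 and stood at 1600 ± 47 CPM in NMuMG control. Mmp17, a membrane-anchored enzyme, had 0 counts in E0771 and 2.73 ± 0.453 CPM in NMuMG control. Plat was lower in E0771 (1.4 ± 0.394 CPM against 62.1 ± 0.141 in NMuMG, log2 fold change -5.44 ± 0.104, adjusted p = 2.55e-35). Mmp19 and Mmp11 were higher in E0771, with log2 fold changes of 2.78 ± 0.129 (1.38e-22) and 1.20 ± 0.0773 (8.19e-18). All 11 activators and partners tested differed between the lines, 2 higher and 9 lower in E0771, where 80.5% of all genes differed (37.1% higher, 43.4% lower).

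The genes next to Timp3 on chromosome 10 were looked at after its 0 counts in E0771 were seen. Syn3, which overlaps it, also had 0 counts in the 9 E0771 libraries and 662 in NMuMG. Of the RefSeq neighbours Fbxo7 had 6856 counts in E0771 and 5183 in NMuMG, and Hsp90b1 251628 and 186370. Between Timp3 and Hsp90b1 lie Gm6729, with 0 counts in both lines, and Gm5174, with 0 in E0771 and 11 in NMuMG.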
